A study of Homo sapiens with 6 samples.

Results

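Glucose breakdown, lactate handling and the transcriptional response to low oxygen share many genes, and 36 of them were followed here in MDA-MB-231BR cells, a brain-seeking subline of MDA-MB-231, which is an established human breast cancer line. The 36 were taken by symbol from a table of 17721 genes, and they comprise 2 glucose transporters, 15 glycolytic enzymes, 2 regulators of fructose 2,6-bisphosphate, 4 lactate genes, 4 pyruvate dehydrogenase kinases and 9 other hypoxia genes. RNA was sequenced from 6 libraries, which the labels call biological replicates within each group. In the first group, 3 libraries, the cells stably carried an shRNA against ACSS2, the enzyme that makes acetyl-CoA from acetate outside mitochondria. In the second group, also 3 libraries, they carried a control shRNA. Both groups received their hairpin by lentivirus, went through 3 days of antibiotic selection and grew in DMEM with fetal bovine serum. The labels give neither the oxygen level nor the number of hairpin sequences behind the replicate numbers 1, 2 and 3, so p-values measure the spread between these libraries. These are bulk RNA samples, in which fewer cells of a type and less RNA per cell cannot be told apart.

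In glycolysis, glucose enters through GLUT transporters and is turned into pyruvate by a chain of cytosolic enzymes. Pyruvate is then either reduced to lactate, which leaves through monocarboxylate transporters, or oxidised in mitochondria, a step that the pyruvate dehydrogenase kinases switch off. Hypoxia-inducible factors (HIFs) are transcription factors that prolyl hydroxylases mark for degradation while oxygen is present. When they are stable they bind a short DNA element whose core often reads ACGTG. They then activate many of these genes, both glycolytic ones and genes for acid balance, collagen processing and histone demethylation. Breast cancer cells of this kind are known for high glycolysis also in the presence of oxygen.

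That core was searched on both strands of the promoter windows of the members, from 250 bases before to 50 bases after each start site (RefSeq, GRCh38.p14). Windows exist for 33 of the 36 genes, 62 windows in all. ACGTG, read as CACGT on the other strand, was present in 24 of the 62 windows (38.7%), against 7518 of all 35116 promoter windows (21.4%) and 3944 of 15573 windows of genes tested here (25.3%). It lies inside CACGTG, which other factors bind, so 1 CACGTG counts as a match on each strand. CACGTG itself was in 8 of the 62 windows (12.9%), against 9.16% of windows of genes tested and 7.26% of all windows. By gene, the core was in 10 of 15 glycolytic enzymes and in 4 of the 8 other hypoxia genes with a window, and over all 33 members in 20 (60.6%), against 32.5% of tested genes and 24.9% of all genes with a window. Genes differ in their number of windows, and the 15 enzymes had 34. The core was in 6 of the 9 genes with a window that rose in the paired test described further on, and in 14 of 24 that did not pass it. A match is a description of letters, not of binding. Shown are 3 promoters of genes that rose, ANKRD37 (chr4:185396591-185396890, plus strand), CA9 (chr9:35673678-35673977, plus strand) and P4HA1 (chr10:73096817-73097116, minus strand). Beside them are 2 promoters of enzymes that did not pass, PGK1 (chrX:78103998-78104297, plus strand) and LDHA (chr11:18394313-18394612, plus strand). Each is written 5′ to 3′ along the gene, and capitals mark the core on either strand.
ANKRD37: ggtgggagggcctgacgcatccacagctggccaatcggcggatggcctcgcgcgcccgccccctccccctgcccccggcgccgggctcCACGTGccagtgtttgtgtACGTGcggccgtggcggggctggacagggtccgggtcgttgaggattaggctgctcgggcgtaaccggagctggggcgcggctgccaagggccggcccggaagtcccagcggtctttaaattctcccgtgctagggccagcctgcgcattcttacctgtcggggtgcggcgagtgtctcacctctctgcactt
CA9: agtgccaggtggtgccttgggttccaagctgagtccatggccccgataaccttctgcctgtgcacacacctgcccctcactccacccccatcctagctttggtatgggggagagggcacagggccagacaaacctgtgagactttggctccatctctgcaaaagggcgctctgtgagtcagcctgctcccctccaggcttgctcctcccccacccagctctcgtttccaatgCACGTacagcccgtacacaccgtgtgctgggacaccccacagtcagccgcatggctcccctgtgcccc
P4HA1: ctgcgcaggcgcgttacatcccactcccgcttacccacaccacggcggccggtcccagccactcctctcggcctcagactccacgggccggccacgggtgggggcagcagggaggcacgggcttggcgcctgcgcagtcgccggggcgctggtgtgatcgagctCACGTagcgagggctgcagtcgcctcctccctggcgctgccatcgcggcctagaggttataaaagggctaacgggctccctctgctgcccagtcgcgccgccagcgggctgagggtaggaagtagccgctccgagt
PGK1: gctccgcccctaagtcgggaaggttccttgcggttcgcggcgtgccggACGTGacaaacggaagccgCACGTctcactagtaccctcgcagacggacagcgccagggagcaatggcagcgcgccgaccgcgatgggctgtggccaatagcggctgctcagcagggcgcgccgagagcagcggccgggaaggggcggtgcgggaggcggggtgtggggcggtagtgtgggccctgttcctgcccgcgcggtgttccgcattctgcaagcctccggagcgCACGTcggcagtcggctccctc
LDHA: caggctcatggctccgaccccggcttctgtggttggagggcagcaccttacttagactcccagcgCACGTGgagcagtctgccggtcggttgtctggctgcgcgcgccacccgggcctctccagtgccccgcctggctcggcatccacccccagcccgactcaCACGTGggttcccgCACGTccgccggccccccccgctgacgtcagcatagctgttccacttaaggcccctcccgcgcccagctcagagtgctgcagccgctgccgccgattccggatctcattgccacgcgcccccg
The CA9 promoter holds 1 match, which starts 18 bases before the start site, and P4HA1 holds 1, which starts 86 bases before it. ANKRD37 and PGK1 hold 3 matches each, and LDHA holds 5. The letters therefore occur in some promoters of genes that rose and in some of genes that did not pass. All 5 promoters shown hold a match, while a second LDHA window had 0. Of the genes that rose, KDM3A, EGLN3 and PFKFB4 had 0 matches in their windows, and SLC2A3 and NDRG1 had no window. Only ACGTG and CACGT were searched, so other forms of the element and sites outside the windows were not covered.

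The libraries held 15048275 to 18608124 counts each, and all 36 genes passed the low-count filter with which 13003 genes were tested. Levels are CPM, read counts scaled to library size and composition, and levels of different genes are compared only as TPM, which is also corrected for transcript length. All 7 markers of the line were expressed, led by VIM and MSN, and 2 of the 7 fell in the paired test, CD44 (log2 -0.57) and CAV1 (-0.35). In that test, described below, 12.7% of all genes rose and 12.4% fell. Of 5 genes that the line has low or lacks, CDH1 had at most 0.124 CPM, and ESR1, PGR and EPCAM had under 4 CPM. GATA3, which also fell, had 2.78, 3.33 and 1.86 CPM in ACSS2 shRNA libraries, against 5.13, 5.30 and 4.78 CPM in control libraries. No leukocyte marker was high enough to be tested. Of 4 endothelial markers, 2 (CDH5 and KDR) rose in the paired test, and the list summed to 21.7, 32.1 and 42.1 CPM in ACSS2 shRNA libraries, against 10.8, 15.1 and 29.9 CPM in control libraries, while its marker VWF stayed at or under 1.03 CPM. Of 4 fibroblast markers COL1A1 rose, with 50.5, 35.1 and 23.7 CPM in ACSS2 shRNA libraries, against 17.1, 16.0 and 12.3 CPM in control libraries. COL1A1 made up most of the list sum of 53.7, 39.3 and 28.2 CPM, against 19.9, 19.0 and 15.6 CPM in control libraries. PDGFRB did not pass, and DCN and LUM, with at most 0.111 and 0.0557 CPM, were not tested. Of 5 neuronal and glial markers, RBFOX3 and MBP fell, and SYN1, GFAP and AQP4 were too low to be tested. SYN1 was higher without overlap, at 0.668, 0.566 and 0.620 CPM in ACSS2 shRNA libraries, against 0.285, 0.171 and 0.517 CPM in control libraries. GFAP averaged 0.260 CPM in ACSS2 shRNA and 0.0810 CPM in control libraries, and AQP4 had at most 0.0570 CPM. The part of these markers in the results was not tested.

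The targeted gene was lower in every ACSS2 shRNA library than in the control library of the same number. ACSS2 had 11.1, 50.5 and 88.7 CPM in ACSS2 shRNA replicates 1, 2 and 3, against 76.3, 71.2 and 163.6 CPM in control replicates 1, 2 and 3. The groups overlapped, because replicate 3 was high in both. Its log2 difference was -2.76 in pair 1, -0.49 in pair 2 and -0.88 in pair 3. It did not pass the test that ignores the replicate number (log2 fold change -1.05, edgeR adjusted p = 0.504) and fell in the test that pairs libraries by number (-1.31 ± 0.30 SE, edgeR adjusted p = 0.00757), while DESeq2 with pairing gave an adjusted p of 0.126.

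The 2 tests gave different counts for the 36 genes. Without pairing, 0 of the 36 passed at an adjusted p under 0.05, where 9 of all 13003 genes did (0.0692%, of which 0.0231% of genes were higher and 0.0461% lower), and the lowest adjusted p of a member was 0.0906, for SLC2A3. At an unadjusted p under 0.05 edgeR gave 3 members, SLC2A3, KDM3A and PDK1, all higher. Over all 13003 genes 896 were higher and 924 lower at that level. DESeq2 without pairing called 2 of the 36, SLC2A3 and KDM3A, both higher, where it called 3.98% of all genes (1.64% higher and 2.35% lower). With pairing, 11 of the 36 were higher in ACSS2 shRNA cells and 0 were lower, against 12.7% of all genes higher and 12.4% lower (25.1% in either direction). At an unadjusted p under 0.05 these were 14 higher and 0 lower, against 2565 higher and 2379 lower of all 13003 genes. DESeq2 with pairing called 5, SLC2A3, KDM3A, EGLN3, PFKFB3 and PFKFB4, where it called 19.8% of all genes (8.87% higher and 10.9% lower). The other 6 of the 11 lost their call there, with DESeq2 adjusted p between 0.0519 and 0.177. The pairing matters because same-numbered libraries shared deviations (correlations across genes of 0.716, 0.494 and 0.74). With the group in the same edgeR model, 24 of the 36 genes and 38.7% of all genes differed by replicate number (adjusted p under 0.05). In the text that follows, "rose" and "fell" refer to the paired edgeR test, and SE is its standard error.

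**Figure D1:**
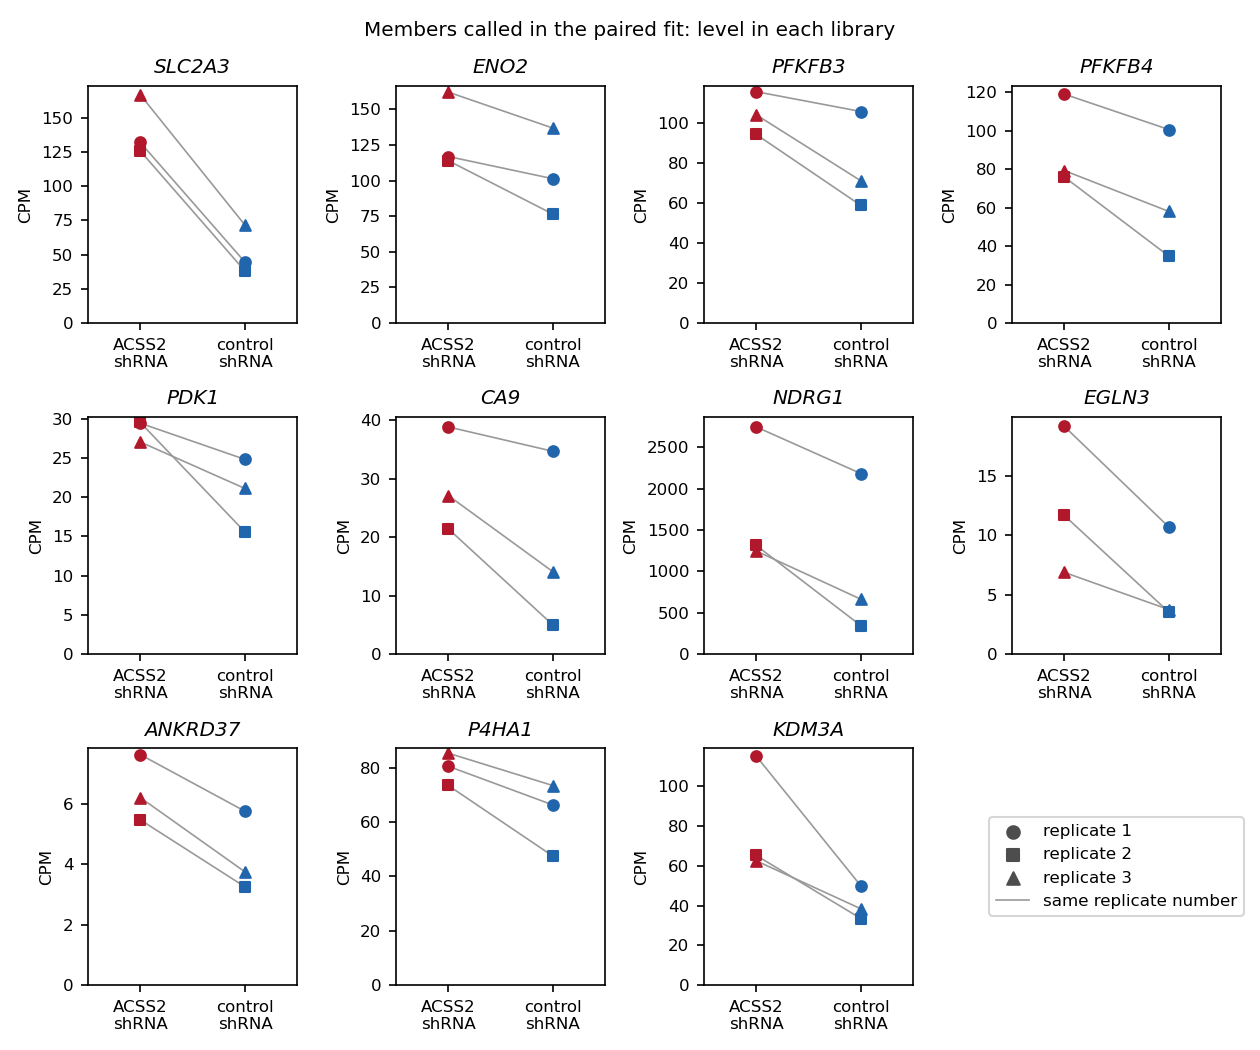
CPM of the 11 genes that rose in the paired test, in each ACSS2 shRNA library (red, left) and control library (blue, right), with grey lines joining libraries of the same replicate number. Every line falls towards the control library, while in 7 of the 11 panels the groups themselves overlap.

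The genes that rose were unevenly spread over the roles, where 12.7% of all 13003 genes tested rose and 12.4% fell. They were 6 of the 9 other hypoxia genes, both fructose 2,6-bisphosphate regulators, 1 of 2 glucose transporters, 1 of 4 pyruvate dehydrogenase kinases and 1 of 15 glycolytic enzymes, while 0 of the 4 lactate genes passed. The median paired log2 fold change was 0.62 over the 9 other hypoxia genes and -0.03 over the 15 glycolytic enzymes, against 0.02 over all genes tested. For the other hypoxia genes the median difference was 0.33 in pair 1, 0.73 in pair 2 and 0.70 in pair 3. For the glycolytic enzymes it was -0.25, 0.09 and 0.04 in the same pairs, and their paired median was 0.10 without the replicate 1 libraries and -0.15 without those of replicate 2. Higher in all 3 pairs were 8 of the 9 other hypoxia genes and 1 of the 15 glycolytic enzymes, against 30.5% of all genes. Lower in all 3 pairs were 3 glycolytic enzymes and LDHB, 4 of the 36, against 27.3% of all genes. With so few genes in a role, a count of 1 or 0 does not stand apart from the share over all genes. These counts and medians describe the lists, and the difference between the lists was not tested.

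**Figure D2:**
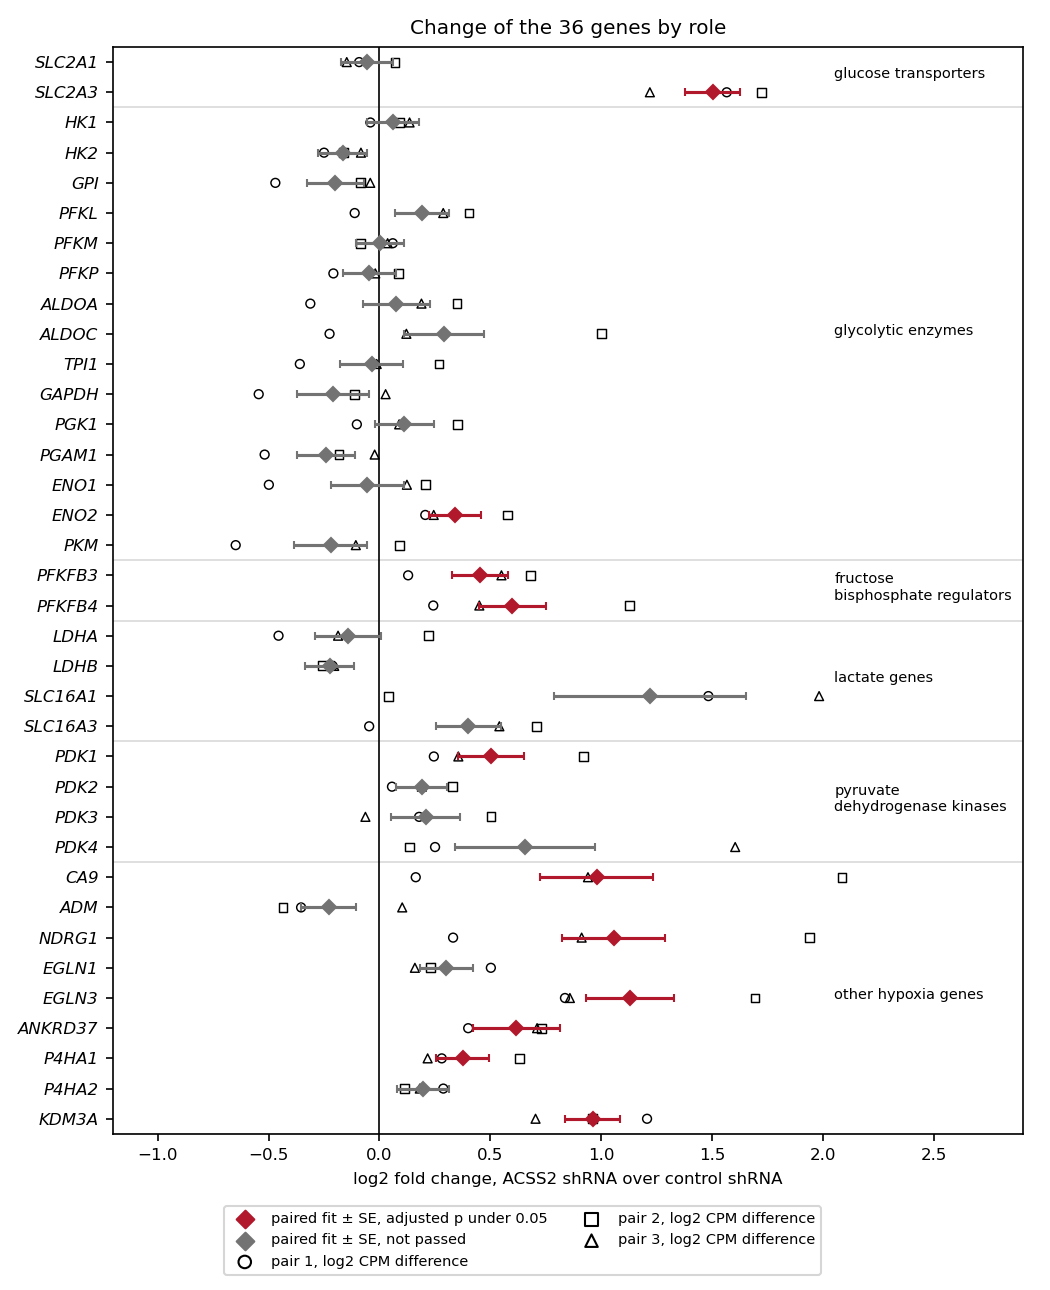
Log2 fold change of the 36 genes, ACSS2 shRNA over control shRNA, by role: diamonds are the paired fit with its SE, red where the adjusted p is under 0.05, and open symbols are the log2 CPM differences of the 3 pairs. The glycolytic enzymes lie around 0, between -0.24 and 0.34, and all 11 red diamonds lie to the right of 0.

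SLC2A3, which encodes GLUT3, a high-affinity glucose transporter best known from neurons, differed most. It had 132, 126 and 167 CPM in ACSS2 shRNA replicates 1, 2 and 3, against 44.5, 38.0 and 71.6 CPM in control replicates 1, 2 and 3. Every ACSS2 shRNA library lay well above every control library, and replicate 3 was the highest of each group. It rose 2.83-fold (log2 1.50 ± 0.12 SE, edgeR adjusted p = 1.56e-05), and unpaired its log2 fold change was 1.46 (edgeR adjusted p = 0.0906). In the authors' deposited table its log2 fold change is 1.44 with a q-value of 0.000175, and it is the one member there with a q under 0.05, where 2.51% of genes with a q-value have one. The gene lies on chromosome 12 between 7919230 and 7936187 (RefSeq, GRCh38.p14). Its near-identical neighbour SLC2A14 had at most 0.124 CPM in any library. GENCODE v29 also holds 3 pseudogenes named after SLC2A3, and their part in its count was not tested.

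SLC2A1, which encodes the widely expressed transporter GLUT1, did not follow. It had 643, 324 and 371 CPM in ACSS2 shRNA replicates 1, 2 and 3, against 685, 309 and 411 CPM in control replicates 1, 2 and 3. The groups overlapped almost completely, and replicate 1 was highest in both. Its log2 fold change was -0.06 ± 0.12 SE paired (edgeR adjusted p = 0.762) and -0.07 unpaired (edgeR adjusted p = 0.954). Per length, SLC2A3 made up 16.0%, 26.5% and 29.5% of the summed TPM of both transporters in ACSS2 shRNA replicates 1, 2 and 3, against 5.70%, 10.3% and 13.9% in the control replicates. SLC2A1 thus remained the more abundant transporter in all 6 libraries. The shares did not overlap between groups (24.0% ± 7.07 in ACSS2 shRNA and 9.98% ± 4.13 in control libraries, SD, n = 3 each). An exact two-sided permutation test gave p = 0.1, the smallest that 3 against 3 allows, and 0.25 after Benjamini-Hochberg adjustment over 10 such shares.

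**Figure D3:**
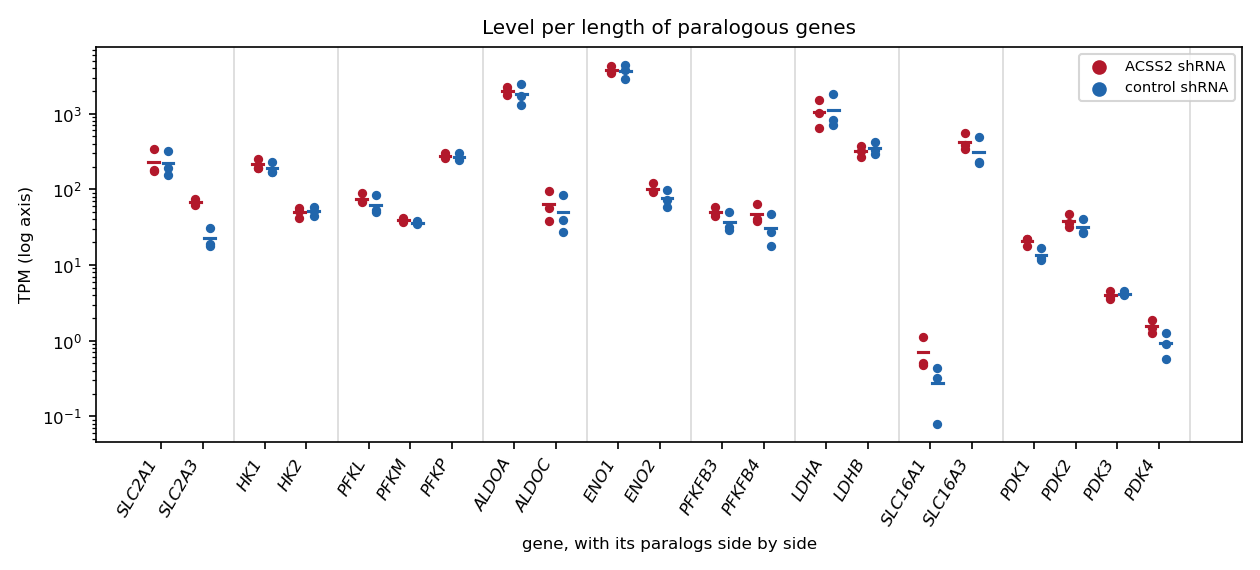
TPM (log axis) of paralogous members side by side, with 1 point per library, ACSS2 shRNA in red on the left and control shRNA in blue on the right of each gene, and a bar at the group mean. SLC2A3 is the pair of columns with a clear gap between groups, and it stays below SLC2A1.

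Of the glycolytic enzymes, 14 of 15 did not pass, where 25.1% of all genes passed in either direction. By replicate number 11 of 15 differed, against 38.7% of all genes. GAPDH, which oxidises glyceraldehyde 3-phosphate, was the most abundant member per length, with 10367 ± 2185 TPM in ACSS2 shRNA and 11463 ± 4304 TPM in control libraries (SD, n = 3 each). In CPM it had 8218, 5846 and 6381 in ACSS2 shRNA replicates 1, 2 and 3, against 11985, 6324 and 6260 in control replicates 1, 2 and 3. One control library, replicate 1, stood far above the other 5. The log2 fold change of GAPDH was -0.21 ± 0.16 SE (paired edgeR adjusted p = 0.375) and -0.27 unpaired (edgeR adjusted p = 0.733). GENCODE v29 holds 62 pseudogenes named after GAPDH, so its count may be split among copies. Other members have fewer there, led by PGAM1 with 13, LDHA with 6 and PKM with 5.

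PKM, which encodes the pyruvate kinase of the last step, showed the same library standing out. It had 3490, 2458 and 2507 CPM in ACSS2 shRNA replicates 1, 2 and 3, against 5469, 2307 and 2699 CPM in control replicates 1, 2 and 3. Control replicates 2 and 3 lay within or just under the range of the ACSS2 shRNA libraries. Its log2 fold change was -0.22 ± 0.16 SE (paired edgeR adjusted p = 0.348) and -0.31 unpaired (edgeR adjusted p = 0.727). HK2, the hexokinase isoform induced in many tumours, had 163, 120 and 162 CPM in ACSS2 shRNA libraries, against 194, 135 and 172 CPM in control libraries. Each ACSS2 shRNA value was slightly under its control partner, with overlap between the groups. The HK2 log2 fold change was -0.17 ± 0.11 SE (paired edgeR adjusted p = 0.294) and -0.17 unpaired (edgeR adjusted p = 0.754). HK2 passed neither test.

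ENO2, the neuronal enolase isoform, was the one glycolytic enzyme that rose. It had 117, 114 and 162 CPM in ACSS2 shRNA replicates 1, 2 and 3, against 101, 76.4 and 137 CPM in control replicates 1, 2 and 3. Each pair differed in the same direction, but control replicate 3 lay above 2 of the ACSS2 shRNA libraries. The log2 fold change was 0.34 ± 0.12 SE (paired edgeR adjusted p = 0.0477) and 0.32 unpaired (edgeR adjusted p = 0.604). The call sat at the threshold. It passed in 3 of 8 paired alternatives, and it was lost in DESeq2 with pairing (adjusted p = 0.0926), without the replicate 2 libraries (adjusted p = 0.531) and without the replicate 3 libraries (adjusted p = 0.0644). The abundant isoform ENO1 carried most enolase message, and ENO2 made up 2.59%, 2.59% and 2.70% of the summed TPM in ACSS2 shRNA replicates 1, 2 and 3, against 1.60%, 2.02% and 2.49% in the control replicates.

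The other 11 glycolytic enzymes, among them the hexokinase HK1, the isomerases GPI and TPI1 and the phosphoglycerate kinase PGK1, had paired log2 fold changes between -0.24 for PGAM1, a phosphoglycerate mutase, and 0.29 for ALDOC, the brain isoform of aldolase. Their adjusted p lay at 0.197 or above. PFKM, the muscle form of phosphofructokinase, was the most even of them, with 62.0 ± 4.37 CPM in ACSS2 shRNA and 61.7 ± 1.79 CPM in control libraries (SD, n = 3 each). The liver form PFKL had 117 ± 15.5 CPM in ACSS2 shRNA and 105 ± 35.1 CPM in control libraries, with a paired log2 fold change of 0.19, and the platelet form PFKP had -0.05. PFKP was the major form per length, at 70.8% ± 1.06 of the phosphofructokinase TPM in ACSS2 shRNA and 73.2% ± 1.14 in control libraries (SD, n = 3 each). Without the replicate 1 libraries, PFKL (log2 0.34, edgeR adjusted p = 0.0459) and ALDOC (log2 0.53, edgeR adjusted p = 0.049) passed. ALDOC varied more between replicate numbers than between groups, with 31.9, 47.7 and 86.5 CPM in ACSS2 shRNA libraries, against 37.3, 23.8 and 79.6 CPM in control libraries. HK1, GPI, ALDOA, TPI1, PGK1 and ENO1 had paired log2 fold changes of 0.06, -0.20, 0.08, -0.03, 0.11 and -0.05. Of the exonic bases of ALDOA 42.3% overlap AC093512.2 on the same strand (GENCODE v29), so its count may be shared with that gene.

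As a whole, the 15 glycolytic enzymes took 2.19%, 1.72% and 1.82% of all counts in ACSS2 shRNA replicates 1, 2 and 3, against 2.81%, 1.62% and 1.74% in control replicates 1, 2 and 3. The ACSS2 shRNA share was lower than the control share in pair 1 and higher in the other pairs. The 9 other hypoxia genes took 0.327%, 0.174% and 0.156% in ACSS2 shRNA libraries, against 0.237%, 0.0631% and 0.0909% in control libraries. Here the ACSS2 shRNA share was higher in every pair, while control replicate 1 exceeded 2 ACSS2 shRNA libraries. NDRG1 made up most of that share.

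**Figure D4:**
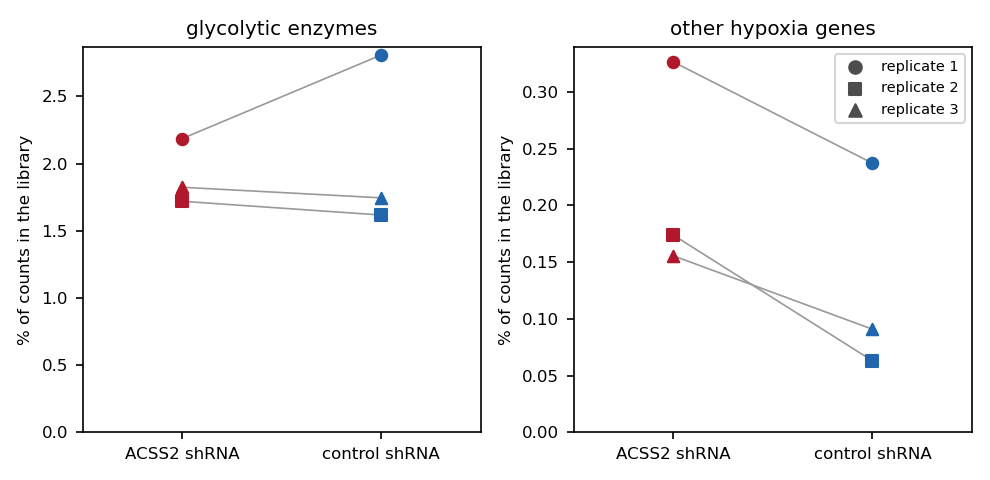
Percent of all counts taken by the 15 glycolytic enzymes (left panel) and the 9 other hypoxia genes (right panel) in each ACSS2 shRNA library (red) and control library (blue), with lines joining replicate numbers. Replicate 1 is highest in both groups and both panels, and the lines fall towards the control library in all 3 pairs of the right panel but in 2 of 3 in the left.

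PFKFB3 and PFKFB4 encode the kinase-phosphatases that set fructose 2,6-bisphosphate, the strongest activator of phosphofructokinase, and both rose. PFKFB3 had 116, 94.4 and 104 CPM in ACSS2 shRNA replicates 1, 2 and 3, against 106, 58.8 and 71.2 CPM in control replicates 1, 2 and 3. PFKFB4 had 119, 76.0 and 79.3 CPM in the ACSS2 shRNA libraries, against 101, 34.8 and 58.1 CPM in the control libraries. For both genes the pair 1 libraries were close together and control replicate 1 overlapped the ACSS2 shRNA group. The log2 fold change of PFKFB3 was 0.45 ± 0.13 SE (paired edgeR adjusted p = 0.0202) and 0.41 unpaired (edgeR adjusted p = 0.461). That of PFKFB4 was 0.60 ± 0.15 SE (paired edgeR adjusted p = 0.0125) and 0.50 unpaired (edgeR adjusted p = 0.58). Without the replicate 2 libraries neither passed, with log2 fold changes of 0.30 and 0.31 and adjusted p of 0.28 and 0.254, and without the replicate 3 libraries PFKFB3 had 0.0595.

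Of the 4 lactate genes 0 passed in edgeR or DESeq2, and 2 had an unadjusted paired edgeR p under 0.05, both higher. Over all 13003 genes 2565 were higher and 2379 lower at that level. LDHA, the lactate dehydrogenase subunit that favours lactate formation, had 1678, 1132 and 792 CPM in ACSS2 shRNA replicates 1, 2 and 3, against 2301, 971 and 901 CPM in control replicates 1, 2 and 3. It followed the replicate number, being highest in replicate 1 of both groups, and the groups overlapped. Its log2 fold change was -0.14 ± 0.15 SE (paired edgeR adjusted p = 0.519) and -0.21 unpaired (edgeR adjusted p = 0.859). LDHB, the subunit that favours lactate use, was lower in all 3 pairs, with 215 ± 27.2 CPM in ACSS2 shRNA and 251 ± 36.6 CPM in control libraries (SD, n = 3 each), and a paired log2 fold change of -0.22 (edgeR adjusted p = 0.158). LDHA made up 75.5% ± 5.99 of their summed TPM in ACSS2 shRNA and 74.0% ± 9.61 in control libraries. Of the exonic bases of LDHB 33.4% overlap AC010197.2 on the same strand (GENCODE v29), so its count may be shared with that gene.

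SLC16A3, the lactate exporter MCT4, had 568, 395 and 395 CPM in ACSS2 shRNA replicates 1, 2 and 3, against 586, 242 and 271 CPM in control replicates 1, 2 and 3. It was higher in pairs 2 and 3 and about level in pair 1. Its paired log2 fold change of 0.40 ± 0.15 SE missed the threshold (edgeR adjusted p = 0.0632), and without the replicate 1 libraries it was 0.62 (edgeR adjusted p = 0.00329). SLC16A1, the transporter MCT1 that moves lactate both ways, was nearly silent, with 2.28, 0.943 and 1.12 CPM in ACSS2 shRNA libraries, against 0.740, 0.912 and 0.194 CPM in control libraries. The groups did not overlap, but replicate 2 differed by very little, and the log2 fold change of 1.22 ± 0.43 SE missed the threshold (paired edgeR adjusted p = 0.0556). Without the replicate 2 libraries it was 1.84 (edgeR adjusted p = 0.00971). By TPM, MCT4 made up 99.8% ± 0.0430 of both transporters in ACSS2 shRNA and 99.9% ± 0.0844 in control libraries (SD, n = 3 each).

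Of the kinases that inhibit pyruvate dehydrogenase, PDK1 rose. PDK1 had 29.4, 29.5 and 27.1 CPM in ACSS2 shRNA replicates 1, 2 and 3, against 24.8, 15.6 and 21.1 CPM in control replicates 1, 2 and 3. All ACSS2 shRNA libraries were above all control libraries and were closer together than the control libraries. The log2 fold change was 0.50 ± 0.15 SE (paired edgeR adjusted p = 0.0261) and 0.48 unpaired (edgeR adjusted p = 0.354), and without the replicate 2 libraries 0.27 (edgeR adjusted p = 0.382), while DESeq2 with pairing gave an adjusted p of 0.0519. PDK2, the most abundant of the 4 per length, did not pass (log2 0.19, adjusted p = 0.244), nor did PDK3 (0.21, adjusted p = 0.349) or PDK4 (0.66, adjusted p = 0.146). PDK4, known as the starvation-induced kinase, had under 4 CPM in all libraries. Of the exonic bases of PDK2 38.6% overlap SAMD14 on the opposite strand (GENCODE v29). By TPM, PDK1 made up 32.3% ± 2.74 of the 4 kinases in ACSS2 shRNA and 27.1% ± 0.880 in control libraries (SD, n = 3 each). That share gave p = 0.1 in the exact permutation test, the smallest possible value, and 0.25 after Benjamini-Hochberg adjustment over 10 shares. The SLC2A3, PFKP and ENO2 shares gave the same values.

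KDM3A, a hypoxia-inducible histone H3 lysine 9 demethylase, showed the clearest difference among the other hypoxia genes. It had 115, 65.2 and 62.5 CPM in ACSS2 shRNA replicates 1, 2 and 3, against 49.9, 33.5 and 38.4 CPM in control replicates 1, 2 and 3. The groups did not overlap, and replicate 1 was highest in both. KDM3A rose 1.95-fold (log2 0.96 ± 0.12 SE, edgeR adjusted p = 0.000261), and unpaired its log2 fold change was 1.00 (edgeR adjusted p = 0.177, DESeq2 adjusted p = 0.0405). In the authors' deposited table its log2 fold change is 0.97 with a q-value of 0.0579. It lies on chromosome 2 in band 2p11.2.

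EGLN3 and EGLN1 encode prolyl hydroxylases that mark HIF subunits and are themselves induced by hypoxia. EGLN3 had 19.2, 11.7 and 6.89 CPM in ACSS2 shRNA replicates 1, 2 and 3, against 10.7, 3.54 and 3.75 CPM in control replicates 1, 2 and 3. It was higher in each pair, while control replicate 1 lay above ACSS2 shRNA replicate 3. EGLN3 rose 2.19-fold (log2 1.13 ± 0.20 SE, edgeR adjusted p = 0.00166), and unpaired its log2 fold change was 1.07 (edgeR adjusted p = 0.407). EGLN1 had 49.0 ± 10.8 CPM in ACSS2 shRNA and 39.3 ± 3.46 CPM in control libraries (SD, n = 3 each) and did not pass (paired log2 0.30 ± 0.12 SE, edgeR adjusted p = 0.0823), although all 3 pairs were higher.

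NDRG1, a stress-induced gene linked to suppression of metastasis, was the most abundant of the other hypoxia genes. It had 2748, 1314 and 1247 CPM in ACSS2 shRNA replicates 1, 2 and 3, against 2184, 343 and 663 CPM in control replicates 1, 2 and 3. Replicate 1 stood far above the others in both groups, so that the groups overlapped. NDRG1 rose 2.08-fold (log2 1.06 ± 0.23 SE, edgeR adjusted p = 0.00615), and unpaired its log2 fold change was 0.74 (edgeR adjusted p = 0.648). The call was lost in DESeq2 with pairing (adjusted p = 0.0995), and without the replicate 2 libraries the paired value was 0.59 (edgeR adjusted p = 0.116).

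CA9, a tumour carbonic anhydrase and a standard hypoxia marker, also had replicate 1 highest in both groups. It had 38.9, 21.4 and 27.1 CPM in ACSS2 shRNA replicates 1, 2 and 3, against 34.7, 4.96 and 14.1 CPM in control replicates 1, 2 and 3. Control replicate 1 was above 2 ACSS2 shRNA libraries, and the pairs differed by 0.16, 2.08 and 0.94 on the log2 scale. CA9 rose 1.97-fold (log2 0.98 ± 0.25 SE, edgeR adjusted p = 0.0147), and unpaired its log2 fold change was 0.70 (edgeR adjusted p = 0.64). Without the replicate 2 libraries the value was 0.50 (edgeR adjusted p = 0.0857), and DESeq2 with pairing gave an adjusted p of 0.177. Of its exonic bases 38.5% overlap ARHGEF39 on the opposite strand (GENCODE v29), and the sources used here do not state whether counting used strand. ARHGEF39 itself had a paired log2 fold change of -0.09 (edgeR adjusted p = 0.807).

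P4HA1, the catalytic subunit of collagen prolyl 4-hydroxylase, had 80.6, 73.5 and 85.4 CPM in ACSS2 shRNA replicates 1, 2 and 3, against 66.3, 47.4 and 73.4 CPM in control replicates 1, 2 and 3. The lowest ACSS2 shRNA library and the highest control library nearly touched. P4HA1 rose by a log2 fold change of 0.37 ± 0.12 SE (edgeR adjusted p = 0.0354), unpaired 0.36 (edgeR adjusted p = 0.451), and without the replicate 2 libraries 0.22 (edgeR adjusted p = 0.452), while DESeq2 with pairing gave an adjusted p of 0.0758. Its paralog P4HA2 had 38.9 ± 14.3 CPM in ACSS2 shRNA and 33.6 ± 10.2 CPM in control libraries (SD, n = 3 each) and did not pass (paired log2 0.20, edgeR adjusted p = 0.24).

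ANKRD37, a small ankyrin-repeat gene known as a hypoxia target, had 7.63, 5.47 and 6.20 CPM in ACSS2 shRNA replicates 1, 2 and 3, against 5.75, 3.25 and 3.75 CPM in control replicates 1, 2 and 3. Only control replicate 1 reached into the ACSS2 shRNA range. ANKRD37 rose by a log2 fold change of 0.62 ± 0.20 SE (edgeR adjusted p = 0.0363), unpaired 0.60 (edgeR adjusted p = 0.436). It did not pass without the replicate 2 libraries (0.52, adjusted p = 0.204) or without the replicate 3 libraries (0.56, adjusted p = 0.123), nor in DESeq2 with pairing (adjusted p = 0.124). Of its exonic bases 35.2% overlap UFSP2 on the opposite strand, whose paired log2 fold change was 0.04 (edgeR adjusted p = 0.844). ADM, the vasodilator peptide adrenomedullin, was the one member of this role with a value below 0, with 58.3, 78.8 and 89.6 CPM in ACSS2 shRNA libraries, against 74.5, 107 and 83.4 CPM in control libraries. It was lower in pairs 1 and 2 and higher in pair 3, and did not pass (paired log2 -0.23 ± 0.13 SE, edgeR adjusted p = 0.201).

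The size of the difference depended on the pair. Pair 2 gave the largest difference for 10 of the 11 genes that rose, against 44.2% of the 1657 genes that rose over the whole table, and pair 1 gave the lowest for 8 of the 11, against 25.7% of the 1657. Control replicate 2 held the lowest value of all 6 libraries for all 11, against 39.2% of the 1657. Without both replicate 2 libraries 4 members were called, which were SLC2A3, KDM3A, EGLN3 and SLC16A1. In that fit 664 of 13061 genes were higher and 917 lower. Without replicate 1 there were 14 members, where 1382 of 13108 genes were higher and 1383 lower. Without replicate 3 there were 8, where 1555 of 13084 genes were higher and 1554 lower. All of these members were higher. SLC2A3, EGLN3 and KDM3A passed in 8 of 8 paired alternatives. Side by side, ACSS2 differed by -2.76, -0.49 and -0.88 in pairs 1, 2 and 3, and the median of the other hypoxia genes by 0.33, 0.73 and 0.70. With 3 pairs no relation was tested.

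**Figure D5:**
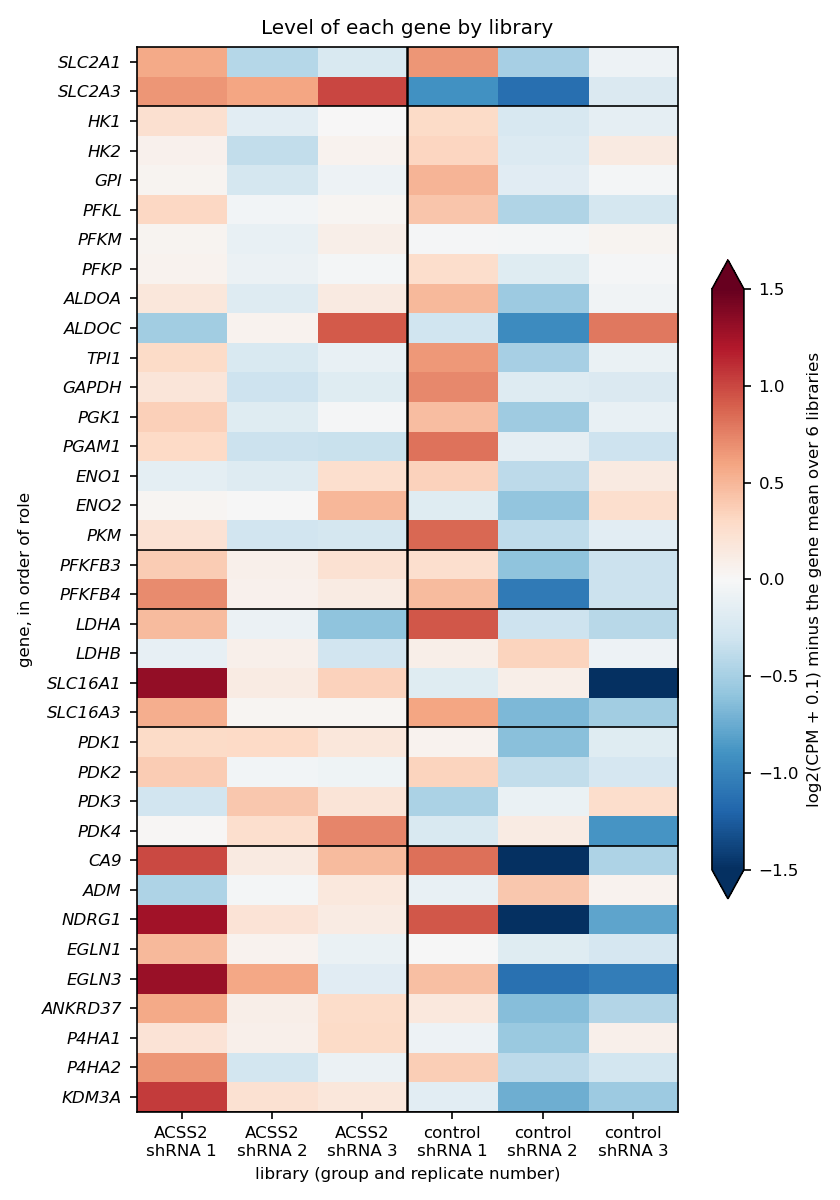
Level of each of the 36 genes by library, as log2(CPM + 0.1) minus the mean of the gene over the 6 libraries, with ACSS2 shRNA libraries on the left and control libraries on the right. Replicate 1 is high for most genes in both groups, and control replicate 2 is low for most hypoxia genes.

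Replicate 1 held the highest level in both groups for 24 of the 36 genes, where this was so for 26.7% of all genes tested. For the glycolytic enzymes these were 11 of 15, and for the other hypoxia genes 7 of 9. The members that departed from it included SLC2A3, ALDOC, ENO1 and ENO2, which were highest in replicate 3 of the ACSS2 shRNA group. The cause of the difference between replicate numbers was not tested.

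Groups that did not overlap at all were found for 5 of the 36, all higher in ACSS2 shRNA cells (SLC2A3, KDM3A, PDK1, P4HA1 and SLC16A1), where 10.7% of all genes were higher without overlap and 9.63% lower. For SLC16A1 and P4HA1 the gap between groups was narrow. SLC2A3 and KDM3A combined a gap with the smallest paired adjusted p of the 36.

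Genes around the same pathway were read from 5 lists. Among 21 tested further hypoxia-induced genes, 10 rose and 1, the MYC antagonist MXI1, fell, against 12.7% and 12.4% of all genes. The 3 with the smallest p were ANGPTL4, an inhibitor of lipoprotein lipase, with a log2 fold change of 1.66 ± 0.20 SE, the repressor BHLHE40 with 1.37 ± 0.19 SE, and the lipoprotein receptor VLDLR with 0.86 ± 0.13 SE (paired edgeR adjusted p = 0.000197, 0.000439 and 0.000818). BHLHE40 had 427, 562 and 691 CPM in ACSS2 shRNA replicates 1, 2 and 3, against 249, 134 and 284 CPM in control replicates 1, 2 and 3. As with the 11 members that rose, control replicate 2 was the lowest library for BHLHE40. Unpaired, these 3 genes had edgeR adjusted p of 0.473, 0.118 and 0.118.

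Among 10 tested HIF subunits and regulators, 3 rose and 1 fell, where 12.7% of all genes rose and 12.4% fell. ARNT2, a dimerisation partner related to HIF-1β, had 4.95, 5.34 and 8.44 CPM in ACSS2 shRNA replicates 1, 2 and 3, against 27.7, 20.1 and 32.7 CPM in control replicates 1, 2 and 3. The groups were far apart, and ARNT2 fell by 2.11 on the log2 scale (SE 0.16, paired edgeR adjusted p = 7.29e-06, unpaired 0.063). VHL, the ubiquitin ligase subunit that removes HIF, rose with a log2 fold change of 0.87 ± 0.14 SE (paired edgeR adjusted p = 0.000943), and the prolyl hydroxylase EGLN2 with 0.50 ± 0.11 SE (adjusted p = 0.00552, without the replicate 2 libraries 0.0674). The transcripts of the HIF subunits HIF1A and EPAS1 did not pass, with paired log2 fold changes of 0.08 (adjusted p = 0.74) and 0.01 (adjusted p = 0.966), the test saying nothing of their proteins.

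Among 16 tested other glycolytic and gluconeogenic isoforms, 1 fell and 0 rose, where 12.4% of all genes fell and 12.7% rose. The one that fell was the gluconeogenic enzyme FBP1 at under 6 CPM (log2 -0.83 ± 0.23 SE, paired edgeR adjusted p = 0.0189, without the replicate 3 libraries 0.0517). The next by p were the muscle isoforms PGAM2 (0.81, adjusted p = 0.111) and ENO3 (0.37, adjusted p = 0.115). Among 14 tested genes of pyruvate entry and lactate transport partners, 1 rose and 3 fell, together 4 of 14, near the 25.1% called over all genes. The pyruvate dehydrogenase phosphatase PDP1, which opposes the PDK enzymes, rose (0.74 ± 0.13 SE, adjusted p = 0.00154), and its regulator PDPR fell (-0.60 ± 0.11 SE, adjusted p = 0.00273). BSG, the chaperone that carries MCT1 and MCT4 to the membrane, fell, with 584, 623 and 912 CPM in ACSS2 shRNA replicates 1, 2 and 3, against 1307, 914 and 1107 CPM in control replicates 1, 2 and 3 (log2 -0.66 ± 0.16 SE, paired edgeR adjusted p = 0.0104).

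Among 17 tested genes of the pentose phosphate, hexosamine and serine branches, 2 rose and 4 fell, where 12.7% of all genes rose and 12.4% fell. The hexosamine enzyme GFPT2 rose (log2 0.71 ± 0.13 SE, paired edgeR adjusted p = 0.00193) and the phosphoglucomutase PGM1 rose (0.45 ± 0.12 SE, adjusted p = 0.0133), while PGM2, a phosphopentomutase, fell (-0.50 ± 0.12 SE, adjusted p = 0.0106). Unpaired, these 3 had edgeR adjusted p between 0.254 and 0.386, and without the replicate 2 libraries PGM1 had a paired adjusted p of 0.252 and PGM2 of 0.125.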

How the data were processed

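The deposited table gives 3 libraries of ACSS2 shRNA cells and 3 of control shRNA cells, grouped by their titles. Its expected counts are read estimates per gene made by the authors, and its TPM columns were also made by the authors. HISAT, Bowtie2 and RSEM are named without versions or roles, per the submitters' processing notes, and the sources used here do not give the annotation. The deposited log2 fold change and q-value (an adjusted p-value) come from a DESeq2 comparison by the authors, per the file headers, with positive values where the ACSS2 shRNA mean is higher. Per sample, 6 FPKM columns were not used. Of the lines, 565 of spilled annotation text were left out, 26 symbols turned into dates were restored, and 17479 of 17721 gene IDs were found in a reference of gene names.

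Of the expected counts 10.5% to 13% per library were not whole numbers, so all were rounded. edgeR 4.0.16 in R 4.3.3 (TMM, filterByExpr with a minimum count of 10 and total of 15, quasi-likelihood F test, Benjamini-Hochberg adjustment over 13003 genes) was run without and with the replicate number as a block. The labels carry a batch tag numbered like the titles, and deviations from the group means correlated by 0.716, 0.494 and 0.74 between same-numbered libraries, above the required 0.1. Pair differences are log2 CPM with a prior count of 2. edgeR estimated a biological coefficient of variation of 26.6% without and 11.8% with the block. SE is the absolute log2 fold change over the square root of F. DESeq2 1.42.0 and limma 3.58.1 served as alternatives, and the fits were tested on simulated data. Overlaps and pseudogenes came from GENCODE v29 and promoters and positions from RefSeq (GRCh38.p14).

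The members and lists were chosen with earlier results of these data known. All 36 members are named, those past the threshold in either test and SLC2A1, HK2, GAPDH, LDHA, PKM, CA9 and EGLN3 with values per library, and from each of 5 further lists the 3 genes with the smallest paired p. MXI1, HIF1A, EPAS1, ARHGEF39, UFSP2 and SLC2A14 were added after their values were seen.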

Additional observations from a re-analysis of the deposited data

How the results depend on the processing

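The replicate block decided most calls. Over the whole table edgeR called 9 genes without it and 3265 with it, and of the members 0 and 11. Unpaired, DESeq2 called 518 genes and 2 members, edgeR without a low-count filter called 39 genes, and leaving out 1 library gave 0 to 6 genes and medians of -0.22 to 0.14 for the glycolytic enzymes and 0.27 to 0.88 for the other hypoxia genes. With the block, DESeq2 called 5 members. Leaving out 1 replicate number there gave 1581 to 3109 genes and 4 to 14 members, and medians of -0.15 to 0.10 and 0.50 to 0.73. Limma on log2(TPM + 1) moved the median of all genes to 0.11 and its paired split of calls to 2302 higher and 1071 lower, against 1657 and 1608. Depth limits SLC16A1, PDK4 and ANKRD37 most. With 3 pairs, the cause of these changes was not tested.

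Reversals of sign numbered 68, in 18 genes, and none of these values passed. On log2(TPM + 1) and log2(TPM + 0.1), in both designs, SLC2A1 had 0.052 and 0.052, PFKP 0.051 and 0.051, TPI1 0.073 and 0.074, ENO1 0.052 and 0.052, and PDK3 -0.068 and -0.083. With DESeq2, DESeq2 size factors and no filter, PFKM had -0.018, -0.018 and -0.020 unpaired and -0.020, -0.020 and -0.022 paired, and unpaired ALDOA had -0.0039, -0.0039 and -0.0048. Leaving out 1 library, the unpaired log2 fold change ranged from -0.45 to 0.31 for SLC2A1, -0.083 to 0.23 for HK1, -0.39 to 0.0100 for GPI, -0.047 to 0.46 for PFKL, -0.039 to 0.035 for PFKM, -0.18 to 0.074 for PFKP, -0.22 to 0.33 for ALDOA, -0.24 to 0.86 for ALDOC, -0.35 to 0.29 for TPI1, -0.45 to 0.12 for GAPDH, -0.17 to 0.38 for PGK1, -0.55 to 0.14 for PGAM1, -0.29 to 0.10 for ENO1, -0.57 to 0.17 for PKM, -0.55 to 0.36 for LDHA, -0.0024 to 0.42 for PDK2 and -0.14 to 0.49 for P4HA2. Paired, it ranged from -0.032 to 0.014 for PFKM, -0.15 to 0.027 for PFKP, -0.10 to 0.26 for ALDOA, -0.081 to 0.53 for ALDOC, -0.22 to 0.12 for TPI1, -0.041 to 0.21 for PGK1, -0.22 to 0.16 for ENO1 and -0.36 to 0.010 for LDHA.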
